A study of Rattus norvegicus with 28 samples.

Results

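The cytosolic ribosomal protein genes were followed on expression arrays of amygdala RNA from rat pups, taken immediately after odor-shock training. They were taken from the symbol column of the authors' comparison tables: every probe set with a single symbol starting with Rps or Rpl and a digit, without the S6 kinase genes. Each gene was represented by its brightest probe set on average over all arrays. This gave 52 genes, 23 of the small (40S) and 29 of the large (60S) subunit, measured by 62 of the 15866 probe sets shared by both array designs used. In 10 genes there was more than 1 probe set. The pups were 12 days old and untreated (4 paired and 4 unpaired arrays), 8 days old and given corticosterone, a steroid hormone of the adrenal cortex (3 and 3), or 8 days old and given saline (7 and 7). All had 11 presentations of a peppermint odor of 30 s within 45 min, and a tail shock of 1 s at 0.5 mA with each. In paired pups the shock came at the end of the odor, and in unpaired control pups it came 2 min after it. Each sample held 50 to 80 mg of whole amygdala tissue, and no label tells single pups from pooled ones, so p-values measure the spread between these samples, which may be technical.

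Ribosomal proteins are the protein part of the cytosolic ribosome: the 40S subunit reads the mRNA and the 60S subunit joins the amino acids. Their mRNAs are among the most abundant of any cell, and in vertebrates most of them begin with a C followed by a run of C and T bases, the terminal oligopyrimidine tract, through which mTORC1 signalling controls how well they are translated. Growing neurons make many ribosomes, and lasting forms of synaptic plasticity need new protein.

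No member was called between paired and unpaired pups in any condition, while 43 of 52 were called lower in 12-day than in 8-day saline pups, as given below with the background. The sequences around the start sites are shown for the members that the comparison of ages turned on. RefSeq promoters (build GRCr8) were found for 40 of the 52 members, 25 through their accession and 15 through their symbol. A run of at least 6 C or T bases that begins with C within 5 bases of the annotated start, on the strand of the gene, was present in 24 of these 40 (60.0%), against 3318 of all 33469 promoters in the table (9.91%). The letters CTTTC lay within the 30 bases around the start of 19 members (47.5%), against 3.59% of all promoters, and on the other strand, read as GAAAG, of 1 member (2.5%), against 3.82%. Most of the members' CTTTC hits lie within the C and T run, so both counts largely describe the same letters. The lines below give 15 bases before and 15 bases from the annotated start, 5′ to 3′ on the gene's strand, with the C and T run in capitals where 1 was found. Capitals mark the run only from a C within the distance searched, and in Rpl4 and Rpl10 further C or T bases directly precede them. The first 6 belong to members that were lower at day 12, and the last 3 to members that were not.
Rps6: gacgcctcctaggcggtcggctgtgtcaag
Rps27: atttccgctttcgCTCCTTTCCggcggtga
Rps2: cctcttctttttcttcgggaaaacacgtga
Rpl4: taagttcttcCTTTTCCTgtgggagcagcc
Rpl10: caggcgtgggagcgtCTCTTTTCCTCTggc
Rpl36: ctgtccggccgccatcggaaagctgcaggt
Rps3a: gagttgtacttccgCCCTTTTggctctcag
Rps21: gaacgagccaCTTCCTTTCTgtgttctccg
Rpl21: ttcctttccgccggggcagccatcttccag
These windows lie at chr5:106420526-106420555 (Rps6, minus strand), chr2:177964592-177964621 (Rps27, minus), chr10:14251833-14251862 (Rps2, plus), chr8:73566462-73566491 (Rpl4, plus), chrX:157205835-157205864 (Rpl10, plus), chr9:1533765-1533794 (Rpl36, plus), chr2:173827028-173827057 (Rps3a, minus), chr3:187724023-187724052 (Rps21, plus) and chr12:13386139-13386168 (Rpl21, minus). Rps27, Rpl4, Rpl10, Rps3a and Rps21 had the run and Rps6, Rps2, Rpl36 and Rpl21 did not within the distance searched, so it was found in members of both kinds. The Rps2 line does hold an unbroken stretch of C and T across its start. It was not counted because fewer than 6 of its bases remain from its first C within the distance searched. A match is only a description of these letters.

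The deposited values were log2 expression, scaled by the authors apart for each condition. Array medians were 6.38 to 6.46 at day 12, 5.06 to 5.09 after corticosterone and 6.05 to 6.19 after saline, so levels were compared between conditions only after quantile normalization over all 28 arrays, which gives every array the same distribution. Paired and unpaired samples were processed together within a condition, per the design text, so condition and processing run cannot be told apart in any comparison between conditions. Replicates 3 and 4 of the 12-day and saline groups were on the larger array design and all others on the smaller one. The saline arrays also fell into 3 sets by replicate number (1 to 2, 3 to 4 and 5 to 7), in paired and unpaired pups alike; the set of 3 to 4 is the larger design, and the labels name no batch for the split of the others, which was known from earlier results. Forebrain markers (mean of 3 genes, 9.25 to 10.86 at day 12, 9.16 to 10.63 after corticosterone and 8.53 to 10.76 after saline, quantile-normalized log2) and neuron markers (mean of 4 genes, 11.61 to 12.27, 10.67 to 10.79 and 10.82 to 11.79) were present in all arrays.

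Nearly all members lay at the top of the arrays. The median member stood between the 98.5th and the 99.5th percentile of all probe sets of its array. Highest were Rps29 (mean over all arrays, 14.01 on the deposited log2 scale), Rpl3 (13.73), which sits next to the site where amino acids are joined, and Rpl31 (13.62). Lowest were Rpl39 (3.61) and Rpl36 (4.49), and then Rpl36a, far above them at 11.05. As probe sets differ in brightness, these are positions of probe sets and not amounts of mRNA. Many ribosomal protein genes have processed pseudogenes and near-identical copies, and the accessions behind Rpl36a and Rpl37 now belong to Rpl36al1 and Rpl37l1, so each probe set may read more than 1 transcript.

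Within a group the members varied slightly less than other probe sets. Their median SD within groups was 0.182 log2, against 0.215 for all probe sets and 0.213 for the 1664 probe sets with a mean of at least 10. Most constant were Rps27a (0.0863), which is made as a fusion with ubiquitin, Rps3a (0.0901) and Rpl3 (0.0913). Most variable was Rps15 (0.470), a 40S protein needed late in subunit assembly, ahead of Rpl22 and Rps26.

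In saline pups the variation of the members went with the array sets and not with training. The sets held a median 89.9% of a member's variance over the 14 arrays, against 64.4% for all probe sets and 79.1% for those with a mean of at least 10, and training held 0.45%. Deviations from the group means of 2 members correlated at a median of 0.733 across these arrays (all pairs of probe sets, 0.023). Once the set means were taken out, they correlated at 0.225 (all pairs of probe sets, 0.03). These are descriptions over 14 arrays that share sets. In 12-day pups, whose sets are the array designs, the sets held 54.9% of a member's variance (all probe sets, 56.5%). There the members correlated at 0.541, and at 0.513 without the set means (all pairs of probe sets, 0.077 and 0.147). In saline replicates 5 to 7 the members were higher than in replicates 1 to 2 by a median of 0.39 log2 as deposited. Of the 52, 49 were higher and 40 of them did not overlap. Over all probe sets the median was 0.01, with 55.7% higher and 12.9% higher with no overlap. For those with a mean of at least 10 the median was -0.08, with 40.5% higher and 22.6% higher with no overlap. Rps15 showed the largest such difference, at 13.53 to 13.80 in replicates 5 to 7 and 12.23 to 12.48 in replicates 1 to 2. Rps29 was the member furthest in the other direction, at 13.92 to 14.33 and 14.19 to 14.28. After quantile normalization the median of the members was 0.28, with 46 higher, against 45.0% of all probe sets and 47.7% of those with a mean of at least 10.

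**Figure D1:**
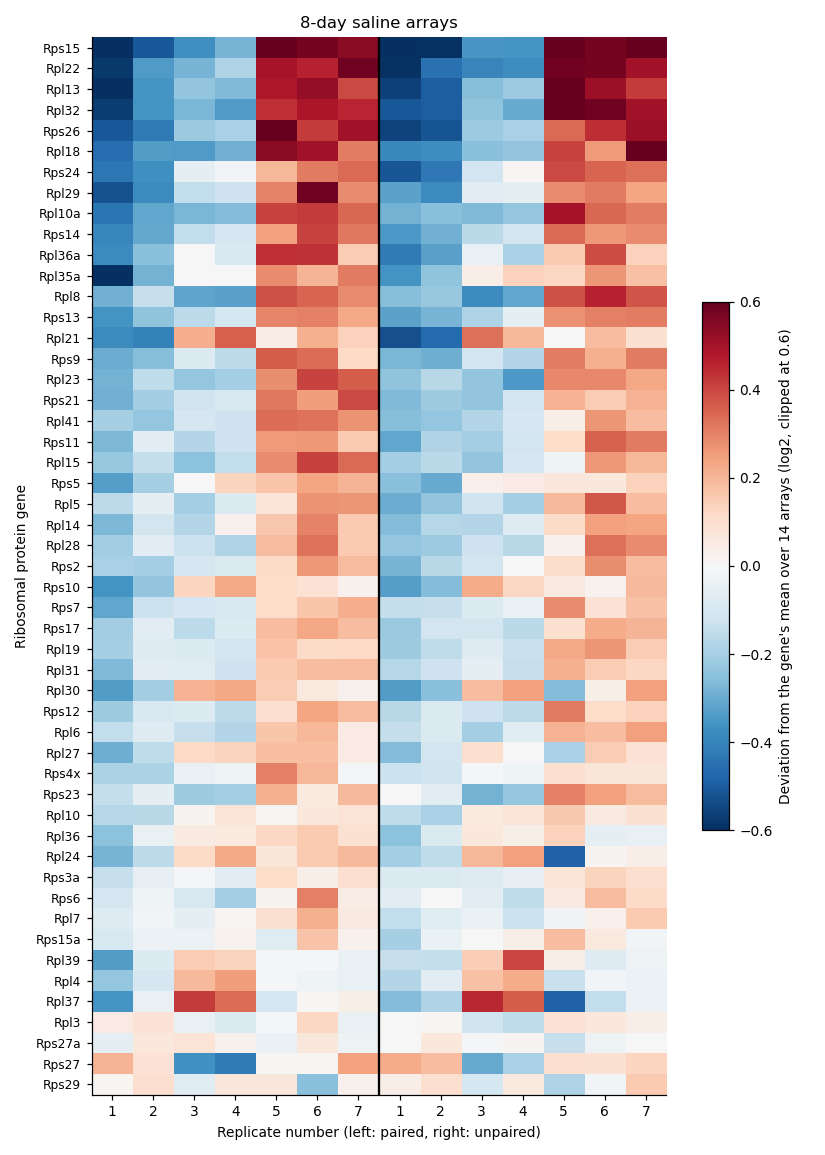
Deviation of each member reported by name (1 per line) from its mean over the 14 saline arrays, on the deposited log2 scale, clipped at 0.6, with paired arrays on the left and unpaired arrays on the right of the black line. Replicates 5 to 7 are red and replicates 1 to 2 blue for most members on both sides, with Rps15 at the top and Rps29 at the bottom.

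Other lists did not all shift with the members between these sets. Comparing replicates 5 to 7 with 1 to 2, the median of 4 elongation factors was -0.36, that of 5 oligodendrocyte markers -0.71 and that of 3 blood genes 0.74. On the deposited scale the mean of the blood genes was 11.67 to 12.10 in replicates 5 to 7 and 11.21 to 11.34 in replicates 1 to 2, and the mean of the oligodendrocyte markers was 6.50 to 6.92 and 6.93 to 8.32. Their part in the shift of the members was not tested.

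The first comparison asked whether learning that an odor predicts shock changed ribosomal protein transcripts in the amygdala. No member was called. In rank product tests, which rank the paired against unpaired difference across all probe sets and call those whose expected share of false positives (pfp) is below 0.05, 0 of 52 members were called in 12-day, in corticosterone and in saline pups, where the background was 0.0504%, 0.0252% and 0.176% of all probe sets (in saline pups, 0.0693% higher and 0.107% lower). With limma (Benjamini-Hochberg adjustment) 0 members were called as well, with 0, 1 and 0 at an unadjusted p under 0.05. In the authors' deposited tables the lowest pfp of a member was 0.872 in 12-day, 0.935 in corticosterone and 0.920 in saline pups. With backgrounds this low, a count of 0 among 52 members does not set them apart from other probe sets.

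Saline pups had the most arrays, 7 paired and 7 unpaired. Their median difference was 0.01 log2 over the members (28 of 52 higher in paired pups) and 0.02 over all probe sets. The differences ran from -0.07 to 0.10 with a median limma SE of 0.116, larger than in 12-day (0.0903) and corticosterone pups (0.0578). The fit held no term for the array sets, so these errors include the spread between sets. Rpl7 had a lowest, median and highest value of 12.82, 12.90 and 13.10 in paired pups, against 12.74, 12.85 and 13.05 in unpaired pups, and the groups overlapped throughout (difference 0.06, SE 0.06; limma adjusted p = 1). It was the member with the smallest limma p on the higher side, ahead of Rpl24 (0.10, SE 0.12) and Rpl27 (0.06, SE 0.09). On the lower side, Rpl39, which lines the tunnel through which new protein leaves the ribosome, had 3.22, 3.54 and 3.71 in paired pups, against 3.41, 3.53 and 3.96 in unpaired pups (-0.06, SE 0.10). Rps27 (-0.07, SE 0.12) and Rps7 (-0.04, SE 0.09) followed, both within their errors. The second Rps27 probe set, nearly as bright, lay on the other side of 0, at 0.08. No member separated the groups without overlap, and 0% of all probe sets did in either direction. The median was 0.00, 0.01 and 0.00 log2 within the sets 1 to 2, 3 to 4 and 5 to 7, while it was 0.06 without paired replicate 1.

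After corticosterone the members leaned upward in paired pups, with no call. Of the 52, 42 were higher in paired pups, by a median of 0.04 log2, while the median of all probe sets was -0.02 and that of probe sets with a mean of at least 10 was 0.01. After quantile normalization within the condition the median of the members was 0.01. Rps24, a 40S protein mutated in some patients with Diamond-Blackfan anaemia, had 12.93, 13.14 and 13.15 in paired pups, against 12.92, 12.84 and 12.92 in unpaired pups. Every paired value lay above every unpaired one, by little at the nearest pair, and the difference was 0.18 (SE 0.07; limma adjusted p = 0.676). Rps2, which helps form the entry of the mRNA channel, had 12.99, 13.06 and 13.18 in paired pups, against 12.96, 12.95 and 12.95 in unpaired pups (0.12, SE 0.05). Rps12 had 12.89, 12.88 and 13.03 in paired pups, against 12.83, 12.84 and 12.81 in unpaired pups (0.11, SE 0.05). With Rpl32, these were the 4 members that were higher with no overlap, against a background of 1.94% of all probe sets; 0 members were lower with no overlap, against 5.02%. On the lower side, Rpl7 (-0.04, SE 0.05), Rpl36a (-0.03, SE 0.06) and Rps15a (-0.03, SE 0.06) lay within their errors.

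In 12-day pups the median difference was 0.00 log2, with 27 of 52 members higher in paired pups and a median over all probe sets of -0.01. Rpl6 had 12.87, 12.93, 12.85 and 12.78 in paired pups, against 12.63, 12.76, 12.78 and 12.80 in unpaired pups, and the groups overlapped at 1 value (0.11, SE 0.07). Rpl5, which carries the 5S rRNA into the 60S subunit and can bind Mdm2, had 12.82, 12.81, 12.73 and 12.59 in paired pups, against 12.84, 12.86, 12.78 and 12.83 in unpaired pups (-0.09, SE 0.07). Rpl7 (0.09, SE 0.08), Rpl18 (0.08, SE 0.08), Rpl30 (-0.12, SE 0.17) and Rps27 (-0.10, SE 0.14) followed, each not called. Again 0 members separated the groups, against 0.334% (higher) and 0.151% (lower) of all probe sets. Within the smaller and the larger design the median was 0.01 and -0.01.

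**Figure D2:**
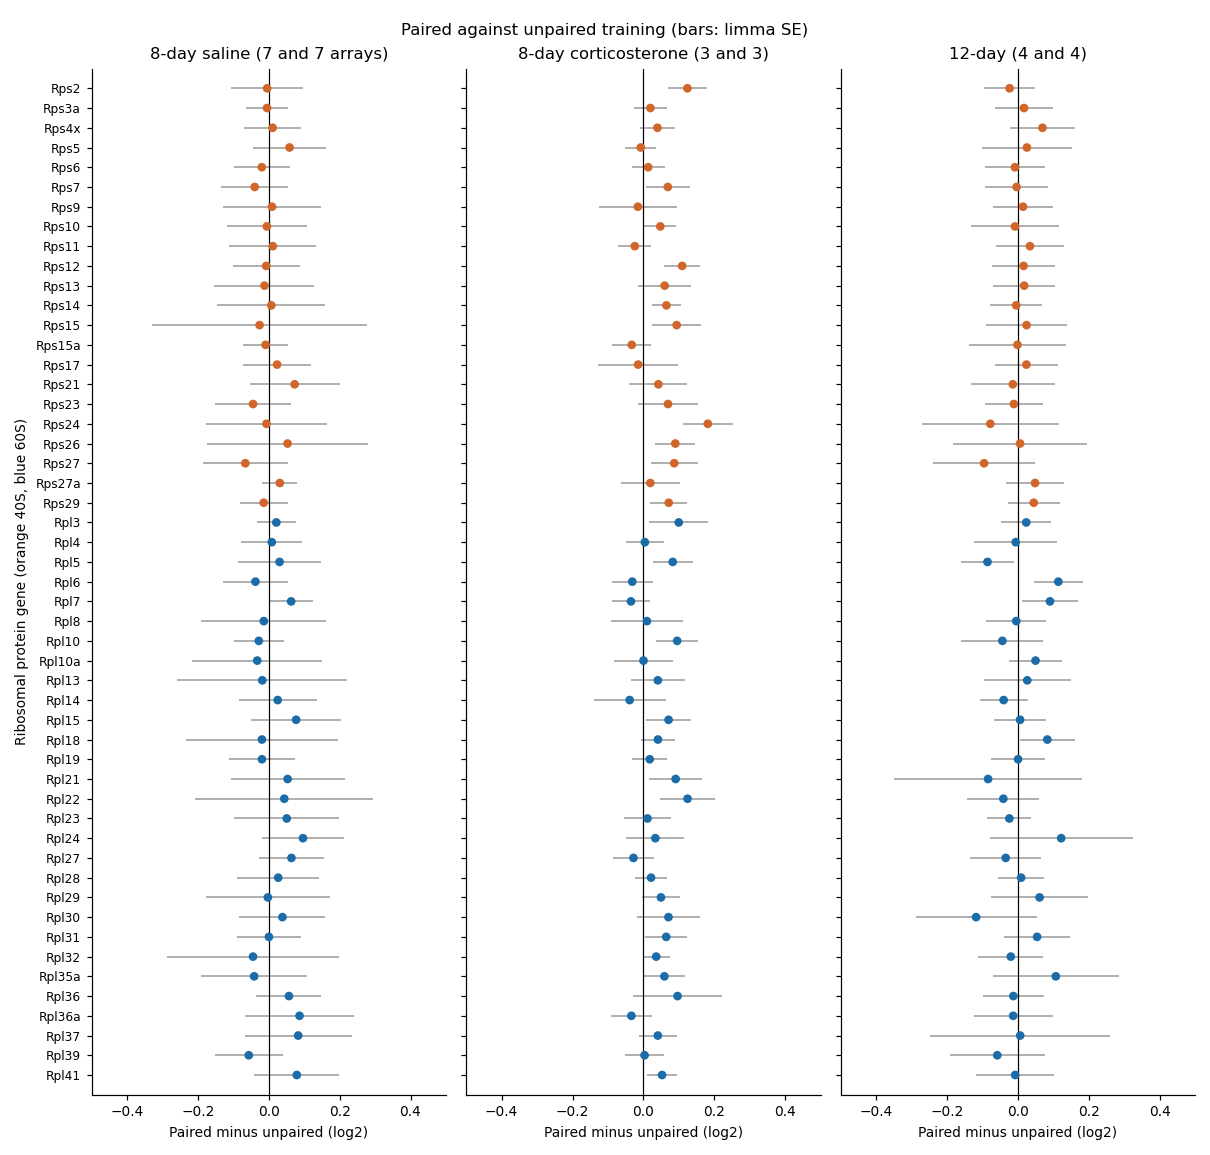
Paired minus unpaired difference (log2, deposited scale) of the members reported by name in the 3 conditions, with the limma SE as bars; 40S genes are orange and 60S genes blue. The points lie between -0.12 and 0.18, and most bars cross 0 in saline and 12-day pups, while after corticosterone most points lie right of 0.

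Rps6, the substrate of the S6 kinases whose phosphorylation is used as a readout of mTORC1 signalling, had differences of -0.01 at day 12, 0.01 after corticosterone and -0.02 after saline, and its phosphorylation is not visible to an expression array. The 12 measured genes of mTORC1 and S6 kinase signalling gave 0 calls in each of these comparisons, as did 16 genes of ribosome biogenesis, 10 initiation factors and 4 elongation factors.

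The effect of pairing was also compared between conditions, in a limma fit over all 28 arrays. No member passed in any of the 3 contrasts, where 0.0063% of all probe sets were called between corticosterone and saline pups and 0% in either contrast with 12-day pups. The median difference of pairing effects was 0.04 between corticosterone and saline pups, 0.00 between 12-day and saline pups and -0.03 between 12-day and corticosterone pups. In each contrast 0 members had an unadjusted p under 0.05. The pairing effect of Rpl10 differed by 0.12 (SE 0.13) between corticosterone and saline pups, and that of Rpl7 by -0.10 (SE 0.10). For Rpl6 the value was 0.15 (SE 0.12) between 12-day and saline pups, and for Rpl5 it was -0.17 (SE 0.19) between 12-day and corticosterone pups. These errors are as large as the values or nearly so.

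Between ages the members differed clearly. At day 12 a total of 43 of 52 were called lower than in 8-day saline pups and 0 higher (limma with training and array design as covariates, Benjamini-Hochberg adjusted p under 0.05), against 29.1% lower and 34.8% higher of all probe sets (63.8% in either direction). Among the 1664 probe sets with a mean of at least 10, 34.4% were lower and 28.3% higher. Most of these probe sets lie below the level of the median member, so they are bright but not matched to the members in level. The median difference was -0.40 log2 for the members, 0.01 for all probe sets and -0.03 for those with a mean of at least 10. Both subunits were involved, with 19 of 23 40S genes (median -0.44) and 24 of 29 60S genes (median -0.40) called lower. Fewer cells of a type and less RNA per cell cannot be told apart in such tissue samples, and the 12-day pups were untreated while the 8-day pups had been given saline.

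Rps6 had the smallest p of the 52. Its lowest, median and highest quantile-normalized values were 11.91, 12.03 and 12.16 in the 8 12-day arrays, against 12.74, 12.85 and 13.07 in the 14 saline arrays. The groups lay far apart, and the difference was -0.80 (SE 0.04; 0.573-fold; adjusted p = 4.05e-13). A second, dimmer Rps6 probe set was also called lower, at -0.37. Rps27, a zinc finger protein of the 40S subunit, had 11.88, 12.09 and 12.37 at day 12, against 12.63, 13.02 and 13.27 after saline (-0.80, SE 0.05; adjusted p = 7.39e-12). A second Rps27 probe set, nearly as bright (mean 12.75 against 12.82 as deposited), was called lower by less, at -0.33. Rps2 had 12.59, 12.75 and 12.90 at day 12, against 13.04, 13.26 and 13.50 after saline (-0.55, SE 0.05). All 3 40S genes thus separated the ages with no overlap.

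Among 60S genes, Rpl15, also mutated in some patients with Diamond-Blackfan anaemia, showed the largest difference of any member. It had 11.84, 12.03 and 12.16 at day 12, against 12.73, 12.86 and 13.22 after saline (-0.90, SE 0.08; 0.535-fold; adjusted p = 1.6e-09). Rpl4, whose loop reaches into the exit tunnel, had 12.18, 12.49 and 12.69 at day 12, against 12.69, 12.82 and 13.17 after saline (-0.49, SE 0.03; adjusted p = 4.92e-12), so that the highest 12-day array just reached past the lowest saline array. Rpl10, which is added last and readies the 60S subunit for translation, had 12.22, 12.57 and 12.79 at day 12, against 12.89, 13.05 and 13.15 after saline (-0.53, SE 0.05). Rpl7 had 12.17, 12.40 and 12.52 at day 12, against 12.62, 12.77 and 12.90 after saline (-0.39, SE 0.04). Rpl36, at a far lower signal, had 3.72, 3.81 and 3.84 at day 12, against 4.36, 4.60 and 4.77 after saline (-0.81, SE 0.05). Rpl15, Rpl10, Rpl7 and Rpl36 separated the ages with no overlap. In all, 17 members were lower with no overlap between the 8 and the 14 arrays, against 12.5% of all probe sets, and 0 were higher, against 13%.

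**Figure D3:**
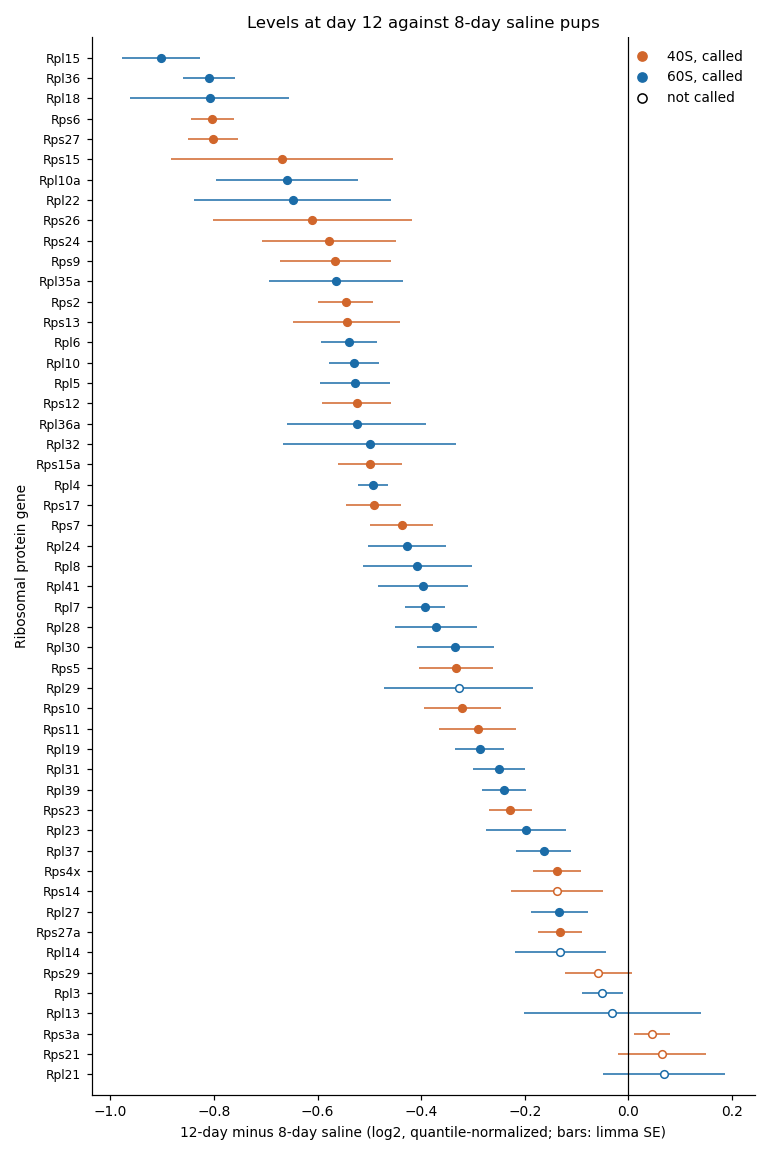
Difference of the members reported by name between 12-day and 8-day saline pups (log2, quantile-normalized over all arrays) with its limma SE; filled points were called, open points were not, orange marks 40S and blue 60S genes. The points run from Rpl15 at -0.90 to Rpl21 at 0.07, and most are filled and below 0.

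A few members did not follow. Rps3a, a 40S protein at the exit of the mRNA channel, had 13.29, 13.44 and 13.63 at day 12, against 13.31, 13.36 and 13.45 after saline (0.05, SE 0.04). Rps21 (0.06, SE 0.08) and Rpl21 (0.07, SE 0.12) were the other members above 0. Rpl3 was at 13.68, 13.71 and 13.75 at day 12, against 13.62, 13.78 and 13.98 after saline (-0.05, SE 0.04), and Rps29, the brightest member, was at -0.06 (SE 0.06). None of these was called. Rps27a, called lower, differed by only -0.13 (SE 0.04). Of the 50 members with a saline mean of at least 10, the brighter 25 had a median difference of -0.25 with 19 called lower, and the other 25 had -0.49 with 22 called lower. Across these 50 members the difference and the saline level correlated at 0.303, given as a description over genes that share arrays. By start site, the 24 members with the C and T run had a median of -0.41 (18 called lower) and the 16 without a counted run -0.51 (14 called lower). Rps2 and Rps15a are among the 16, as their stretches of C and T left too few bases from the first C within the distance searched.

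The 10 further probe sets of members were mostly much dimmer, while those of Rps2 and Rps27 were nearly as bright as the chosen ones. They did not all go the same way: 6 were below 0, of which 4 were called lower (Rpl7 at -1.53, Rps2 at -0.49, Rps6 at -0.37 and Rps27 at -0.33), and 4 were called higher. In Rpl22 the second probe set was higher at day 12 by 1.19 (called), while the brighter one was lower by 0.65 (called). In Rps10 they were at 0.61 (called) and -0.32 (called), in Rpl14 at 0.05 (called) and -0.13 (not called), and in Rps3a both were above 0, at 0.73 (called) and 0.05. With all 62 probe sets, 4 were called higher. Another 37 probe sets were titled as ribosomal proteins but carried older symbols or none, and so lie outside the set of 52. Of all 37, 25 were called lower and 4 higher, with a median of -0.39. Of the 23 of these with a mean of at least 10, 20 were called lower and 0 higher, with a median of -0.43. Rpsa, listed under its older symbol, was called lower on 3 of its 4 probe sets (-0.65, -0.58 and -0.81), and Rplp0, the core of the ribosomal stalk, was at -0.03 (SE 0.05), not called.

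The size of the age difference depended on the scale and on the array design. As deposited, the median was -0.10, with 16 members called lower and 6 higher (all probe sets, 29.5% and 39.2%, median 0.05). With each array centred on its median it was -0.41, with 46 called lower and 0 higher (all probe sets, 52.6% and 22.3%, median -0.26). Set against the probe sets with a mean of at least 10, the members' median differed by -0.37 after quantile normalization and by -0.41 as deposited. Of the 52 members, 48 and 51 lay below the median of those probe sets. Centring shifts all probe sets of an array alike, so the centred distance and count equal the deposited ones by construction. Each 12-day array's member median was below that of each saline array after quantile normalization (12.31 to 12.71 against 12.72 to 13.05), and as deposited the ranges overlapped (12.80 to 13.07 against 12.83 to 13.26).

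**Figure D4:**
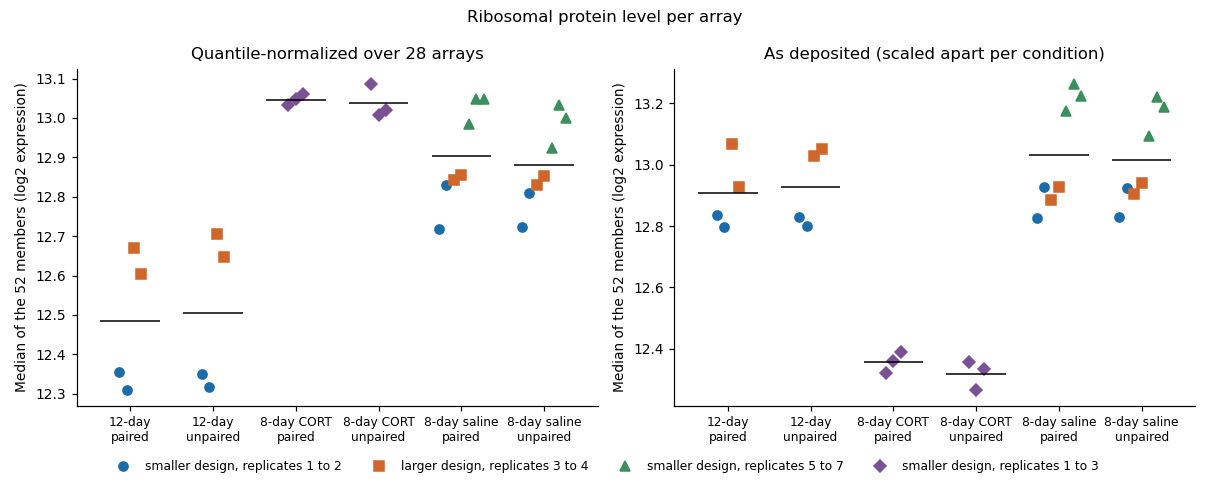
Median of the 52 members in each array (log2) after quantile normalization over all 28 arrays (left) and as deposited (right), by group; symbols mark array design and replicate set, and lines are group means. On the left the 12-day arrays lie at 12.31 to 12.71 and the saline arrays at 12.72 to 13.05; on the right these ranges overlap.

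On the smaller design alone (4 12-day and 10 saline arrays) the median was -0.55, with 42 members called lower against 24.1% of all probe sets. On the larger design alone (4 and 4) it was -0.22, with 34 called lower and 4 higher, against 31.1% and 37.1%. Without overlap, 31 members were lower on the smaller design (18.1% of all probe sets lower, 20.1% higher), and 37 were lower (29%) and 4 higher (35.2%) on the larger one. All 52 members had a lower mean at day 12 on the smaller design and 46 on the larger. The members with no overlap and higher on the larger design were Rpl13, Rpl21, Rps21 and Rps3a, of which Rpl21 differed by 0.36 (SE 0.07) there and by -0.13 (SE 0.17) on the smaller design. Rps6 differed by -0.76 (SE 0.03) on the larger and -0.83 (SE 0.06) on the smaller design. Without the saline replicates 5 to 7 the median was -0.23 with 42 called lower and 3 higher (all probe sets, 32.9% and 39.4%). With the replicate sets as a random block, 37 members were called lower (19.7% of all probe sets), with a consensus correlation of 0.448 over 5 blocks.

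**Figure D5:**
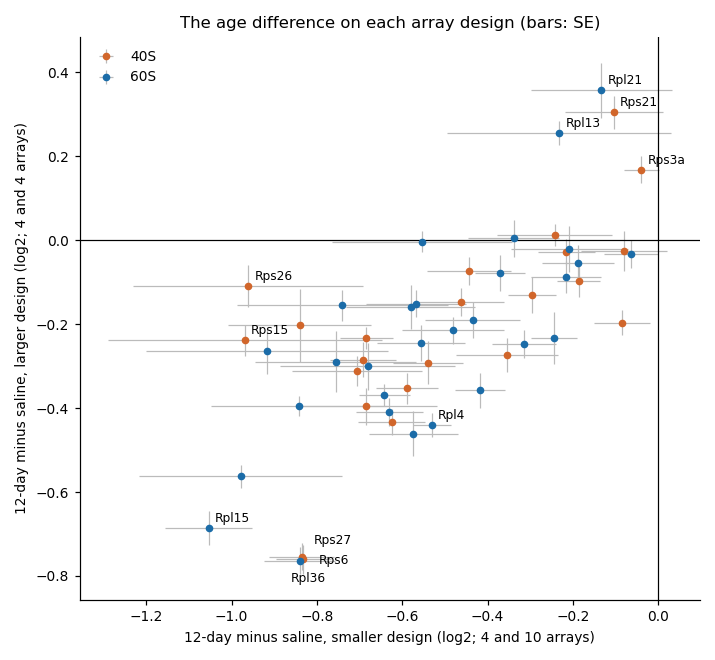
Difference of each member between 12-day and saline pups (log2, quantile-normalized) on the smaller array design (horizontal axis) and on the larger one (vertical axis), with SE bars; orange marks 40S and blue 60S genes. All 52 points lie left of 0 on the horizontal axis and 46 lie below 0 on the vertical axis, with Rpl21, Rps21, Rpl13 and Rps3a clearly above it.

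Other genes of the pathway and markers of cell types are given for the same comparison of ages. Of 16 genes of ribosome biogenesis 8 were called lower and 4 higher (median -0.17), with Ubtf, a factor of rRNA transcription, at -0.75 (SE 0.09) and Ncl, nucleolin, at 0.58 (SE 0.09). Of 10 initiation factors 4 were lower and 0 higher, led by Pabpc1, the poly(A) binding protein, whose own mRNA also begins with a C and T tract (-0.44, SE 0.04). Of 4 elongation factors 0 were called (median -0.07). Among 4 ribosome-associated genes Rack1, a 40S scaffold, was called lower (-0.50, SE 0.04). Of 12 genes of mTORC1 and S6 kinase signalling 6 were lower and 3 higher, with Eef2k at -1.62 (SE 0.20). Of 5 p53 and Myc genes 3 were lower, with Myc at -0.96 (SE 0.13), and of 4 mitochondrial ribosomal proteins 2 were lower and 1 higher.

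Markers of several cell types also differed between ages. All 5 oligodendrocyte markers were higher at day 12 (median 4.12), and their mean was 11.18 to 12.14 at day 12 against 6.20 to 8.17 after saline. All 4 markers of immature neurons were lower (median -1.71), with a mean of 9.10 to 9.30 at day 12 against 10.70 to 11.31. Of 3 genes of dividing cells 2 were lower and 1 higher, with a mean of 6.54 to 6.76 against 7.74 to 8.29. The 3 blood genes were lower (median -0.53; mean 10.31 to 11.37 against 10.79 to 11.97), 2 microglial markers were higher (4.97 to 6.09 against 3.96 to 4.78), 2 of 4 astrocyte markers were higher and 1 of 2 endothelial markers was. Of 4 neuron markers 3 were higher and 1 lower, of 3 forebrain markers 1 was higher, and of 2 choroid plexus markers 0 were called. The part of these shifts in the difference of the ribosomal protein genes was not tested.

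For corticosterone against saline at day 8 the sign of the members' own differences depended on the scale. Their median lay above that of the probe sets with a mean of at least 10 both after quantile normalization and as deposited. After quantile normalization 22 members were called higher and 7 lower, against 29.4% and 35.4% of all probe sets (64.8% in either direction), with a median of 0.13 (all probe sets, -0.03). Among probe sets with a mean of at least 10 the shares were 24% and 26.8%. As deposited the median was -0.70, with 1 member called higher and 47 lower (24.2% and 60.3% of all probe sets, whose median was -0.76), and with centred arrays it was 0.34, with 36 higher and 4 lower (48.7% and 28.1%, median 0.28). Without the saline replicates 1 to 2 the median was -0.0035, with 19 higher and 15 lower (28.8% and 34.8%), and without the replicates 5 to 7 it was 0.35, with 38 and 7 (36.3% and 42.6%). With the sets as a random block, 14 were higher and 3 lower (15.2% and 20%). Set against the probe sets with a mean of at least 10, whose median as deposited was -1.26, the members' median was higher by 0.56 as deposited. There 4 of 52 members lay below the median of those probe sets. Centring shifts all probe sets of an array alike, so the centred distance and count are the same by construction. After quantile normalization the distance was 0.14, with 12 of 52 members below. Without the saline replicates 1 to 2 this distance was 0.01, with 25 of 52 below, and without the replicates 5 to 7 it was 0.38. On the quantile scale 12 members were higher and 4 lower with no overlap, against 14.6% and 21.1%.

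Other lists also differed between corticosterone and saline pups on the quantile scale. Of 16 genes of ribosome biogenesis 8 were called higher and 3 lower (median 0.21), of 10 initiation factors 4 were higher and 0 lower (0.14), and of 4 elongation factors 1 was lower (-0.19). Of 12 genes of mTORC1 and S6 kinase signalling 4 were higher and 2 lower, with Eif4ebp1, an inhibitor of translation initiation that mTORC1 phosphorylates, at 2.11 (SE 0.11). Rack1 was the 1 called gene of the 4 ribosome-associated ones (0.32, SE 0.04), 2 of 4 mitochondrial ribosomal proteins were higher and 1 lower, and 2 of 5 p53 and Myc genes were lower. Among markers of cell types, 2 of 3 genes of dividing cells were lower, Ccnb1 at -3.58 (SE 0.11) and Top2a at only -0.245 (SE 0.061). The other gene of this list was above 0, at 0.161 (SE 0.146), and not called. The list mean was 6.80 to 6.89 after corticosterone against 7.74 to 8.29 after saline, a difference that came mostly from Ccnb1. Of 4 neuron markers 3 were lower, with Slc17a7 at -1.49 (SE 0.39) and a list mean of 10.67 to 10.79 against 10.82 to 11.79. Of 4 markers of immature neurons 2 were lower and 1 higher, with a mean of 10.74 to 11.00 against 10.70 to 11.31. Called lower were 1 of 5 oligodendrocyte markers (Mag, -0.68, SE 0.24; list mean 6.18 to 6.93 against 6.20 to 8.17), 1 of 2 microglial markers (Aif1, -1.27, SE 0.25; 3.16 to 4.18 against 3.96 to 4.78) and 1 of 2 endothelial markers, and called higher were 1 of 4 astrocyte markers and 1 of 3 blood genes. Of 3 forebrain and 2 choroid plexus markers 0 were called. The part of these shifts in the values of the ribosomal protein genes was not tested.

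Some members nonetheless stood apart. The 2 dim members were called higher, Rpl39 at 4.48, 4.54 and 4.59 after corticosterone (lowest, median and highest of 6 arrays), against 3.28, 3.53 and 3.91 after saline (1.06, SE 0.05), and Rpl36 at 5.43, 5.60 and 6.02, against 4.36, 4.60 and 4.77 (1.05, SE 0.09). As deposited, Rpl39 was at 4.01 to 4.09 after corticosterone and 3.22 to 3.96 after saline. Of the bright members, Rps27a had 12.82, 12.98 and 13.04 after corticosterone, against 12.46, 12.61 and 12.74 after saline (0.40, SE 0.04; adjusted p = 7.21e-08), though as deposited it was at -0.46. Rpl28 (0.62, SE 0.09), Rpl14 (0.71, SE 0.11), Rps12 (0.32, SE 0.05), Rps2 (0.33, SE 0.06) and Rpl37 (0.32, SE 0.06) were also called higher and were likewise below 0 as deposited. Rpl4 had 12.44, 12.50 and 12.52 after corticosterone, against 12.69, 12.82 and 13.17 after saline (-0.29, SE 0.03; adjusted p = 8.07e-08), and Rps7 had 12.57, 12.64 and 12.69, against 12.81, 13.05 and 13.24 (-0.43, SE 0.06). Rps4x (-0.18, SE 0.04) and Rpl36a (-0.64, SE 0.15) were lower with no overlap as well. Rps29 (-0.26) and Rps6 (-0.11) were called lower but lay above 0 with centred arrays.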

How the data were processed

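Total RNA was labelled with biotin and hybridised to Affymetrix arrays of 2 designs, per the labels' protocols. RMA and GCRMA are listed, with no version given, per the submitters' processing notes. The deposited values are log2 expression per probe set, and all 28 columns were used. The authors also deposited rank product tables with, per the file headers, the rank product (a score), the pfp (a score), a fold (unpaired over paired, a ratio), and a p-value. Depth is given by the number of arrays, which limits the precision. No detection calls were used.

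Paired and unpaired arrays were compared by rank products (the test in the design text; 100 shuffles within arrays, pfp under 0.05) with SEs from limma, version 3.58.1, in R 4.3.3; levels and differences of pairing effects by limma (lmFit, eBayes with trend, adjusted p under 0.05) over all 15866 probe sets. Python 3.11.15, numpy 2.4.6, pandas 2.3.3 and matplotlib 3.10.9 did the rest. On simulated arrays with equal spread the rank product recovered the set changes with few false calls, and with each probe set's own spread it also called variable unchanged ones.

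Same-numbered paired and unpaired arrays were checked for pairing by the correlation of their deviations from the group means. It was 0.537 to 0.86 in the 7 saline pairs, 0.598 to 0.734 in the 4 12-day pairs and -0.283 to 0.043 in the 3 corticosterone pairs. The paired array correlated best with the unpaired array of its own number in 3 of 7, 3 of 4 and 1 of 3 cases. Arrays of the same set also share deviations, so these correlations do not show that the numbers pair single arrays. The members, gene lists and tests were chosen with earlier results of these data known. In each comparison the text names up to 8 called members per direction, the 3 with the smallest limma p per direction, Rps6, Rps27a and Rpl3, the extremes of level and SD, members whose probe sets differ in sign, and at most 2 genes of each other list; members without overlap are named too. Of the members, 1 enters all counts and medians but is not reported here by name. Rplp0 and Rpsa are under older symbols in the tables. Alternatives covered the scale, filters, probe sets, array design, array sets, the replicate block and each left-out array.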

Additional observations from a re-analysis of the deposited data

How the results depend on the processing

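Between paired and unpaired pups, and for the differences of pairing effects, 0 members were called under each alternative run, including other scales, all probe sets of the members, blocks for array design, each left-out array and, for paired against unpaired alone, limma, the filter at a mean of 5 and the array sets. With the replicate block the counts stayed at 0 and the medians at 0.00 (12-day), 0.04 (corticosterone) and 0.01 (saline), and it changed no call. Leaving out 1 array gave medians of -0.04 to 0.04 in 12-day, 0.02 to 0.06 in corticosterone and -0.03 to 0.06 in saline pups, and for the differences of pairing effects -0.02 to 0.08 (corticosterone minus saline), -0.04 to 0.04 (12-day minus saline) and -0.08 to 0.00 (12-day minus corticosterone).

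For 12-day minus saline, leaving out 1 array gave 41 to 44 members called lower, 0 higher and a median of -0.42 to -0.38. The values that moved were those as deposited (median -0.10, 16 lower, 6 higher), on the smaller (-0.55) and the larger design (-0.22, 4 higher), without saline replicates 5 to 7, an alternative chosen after seeing the data (-0.23, 3 higher), and with all probe sets (4 higher). For corticosterone minus saline, leaving out 1 array gave 18 to 23 higher, 6 to 8 lower and a median of 0.10 to 0.16. It moved with centred arrays (0.34, 36 higher, 4 lower), as deposited (-0.70, 1 higher, 47 lower), by percentile (4 lower), and in alternatives chosen after seeing the data: without replicates 5 to 7 (0.35, 38 higher), without 1 to 2 (-0.0035, 15 lower) and with the sets as a random block (14 higher, 3 lower). As deposited Rps27a turned to -0.46, Rpl28 to -0.23, Rpl14 to -0.39, Rps12 to -0.44, Rps2 to -0.42 and Rpl37 to -0.45, and with centred arrays Rps29 turned to 0.057 and Rps6 to 0.037. The cause was not tested. Levels between conditions therefore rest on the choice of scale. Small pairing effects are not detectable in any condition as fitted, with median SEs of the members of 0.0903 (12-day), 0.0578 (corticosterone) and 0.116 (saline).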
